A study of Mus musculus with 20 samples.

Results

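The photoreceptor outer segment is a modified cilium packed with stacked membrane discs, and the 10 genes described here encode proteins that shape those discs, line their rims, hold the ciliary axoneme inside them or form the connecting cilium through which their components travel. They were chosen by name, with earlier results of these data known, as genes of outer segment structure. Mutations in them are known to cause retinal dystrophies. The genes are Prph2, Rom1, Abca4, Rp1, Rp1l1, Prom1, Cdhr1, Tulp1, Rpgr and Rpgrip1. All 10 were found among the 18754 genes listed for every library, and all 10 passed the filter on low values in both experiments. A rod renews its discs throughout life by adding new membrane at the base of the outer segment while the pigment epithelium removes old discs at the tip. Most of these proteins are membrane or ciliary proteins made in the inner segment, and the membrane proteins fold in the endoplasmic reticulum, the compartment whose stress ATF6 responds to.

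RNA-seq had been performed on 20 whole mouse retinas in 4 groups of 5, sampled from both sexes on a C57BL/6J background. In the oxygen-induced retinopathy (OIR) experiment, Atf6+/+ and Atf6-/- pups breathed 75% oxygen between P7 and P12, then room air until sampling at P17, and the Atf6-/- line carries a premature stop codon in the Atf6 gene in all cells. In the injection experiment, wild-type mice had received 1 µL of Ceapin-A7 at 10 µM, a small molecule that blocks ATF6 activation, or the vehicle, named PBS in the labels and described as saline with a little dimethyl solvent, into both eyes at P30 and were sampled after 24 h without OIR. The stated solvent content of the vehicle is the same for both injected groups in the labels but differs between them in the study's methods. The comparisons ask whether RNA of outer segment structure genes differs when ATF6 is absent during retinopathy and when it is blocked in an otherwise untreated retina.

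Promoter sequence was examined first, because CRX, the homeodomain factor that drives photoreceptor genes, binds a short core motif near many of their starts. In the RefSeq windows of 300 bases around each start (250 before, 50 after; GRCm38.p6), 8 of the 10 genes had an entry; Rp1 and Rp1l1 had none. The core TAATCC, read on both strands, was present in 2 of these 8 genes, Abca4 and Rpgrip1, beside 8.14% of all 27025 genes with such a window. The stretches shown are the 250 bases before the start of Abca4, which holds the core and had the largest difference between Atf6-/- and Atf6+/+ retinas, those of Prph2 and Rom1, partners whose RNA was low together in PBS replicates 4 and 5, and the 30 bases around the core of Rpgrip1, which lies downstream of an alternative start 199 bases away in the GENCODE annotation. Each reads 5′ to 3′ on the strand of the gene, and the capitals mark the core, here as its reverse complement GGATTA.
Abca4, chr3:122044210-122044459, plus strand: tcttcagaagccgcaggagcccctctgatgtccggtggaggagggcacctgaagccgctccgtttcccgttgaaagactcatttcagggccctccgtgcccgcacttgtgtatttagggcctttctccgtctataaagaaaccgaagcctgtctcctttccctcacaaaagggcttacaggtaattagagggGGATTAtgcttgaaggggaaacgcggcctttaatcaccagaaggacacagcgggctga
Rpgrip1, chr14:52110863-52110892, plus strand: gctaaaaggcctGGATTAgtgtctcctcta
Prph2, chr17:46910228-46910477, plus strand: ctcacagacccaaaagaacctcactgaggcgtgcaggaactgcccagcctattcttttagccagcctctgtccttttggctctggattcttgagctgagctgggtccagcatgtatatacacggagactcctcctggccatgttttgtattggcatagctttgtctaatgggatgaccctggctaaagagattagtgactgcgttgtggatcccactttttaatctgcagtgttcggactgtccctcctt
Rom1, chr19:8929357-8929606, minus strand: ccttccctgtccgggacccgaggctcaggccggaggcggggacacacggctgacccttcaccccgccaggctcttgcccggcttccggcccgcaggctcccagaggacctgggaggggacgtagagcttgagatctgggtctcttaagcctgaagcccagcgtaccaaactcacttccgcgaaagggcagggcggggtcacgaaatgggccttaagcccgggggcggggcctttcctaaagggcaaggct
In Abca4 the first base of the core lay at position -58 and in Rpgrip1 at position -28, counted from the RefSeq start. The ATF6 site TGACGTG, the endoplasmic reticulum stress element (ERSE) and the NRL core TGCTGAC were found in 0 of the 8 genes, beside 2.22%, 0.137% and 5.28% of all genes. A missing match says only that these letters are not in this window.

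The deposited values are FPKM, fragments normalized for transcript length and library total, which can be compared between genes. The library sums were 410599 to 456250 FPKM, and no library depth is given in these files. Atf6 itself was 14.9 ± 0.618 FPKM in Atf6+/+ OIR and 15.2 ± 1.51 FPKM in Atf6-/- OIR retinas (SD, n = 5 each), with single libraries at 14.61 to 16.05 and 13.57 to 16.83 FPKM, so its RNA level does not check the genotype labels of a line with a premature stop. The rod marker Gnat1 was at 3841 to 6863 FPKM over the 20 libraries, the level of a rod-rich tissue. The Y-linked gene Ddx3y was at 16.34 FPKM in PBS replicate 5 and at 0 in the other PBS libraries. With Ceapin-A7 it was at 16.13 to 17.52 FPKM in replicates 1 to 3 and at 0 in replicates 4 and 5. By this gene the sexes were uneven between the injected groups. In OIR it was at 12.32 and 15.82 FPKM in Atf6+/+ replicates 3 and 4 and at 15.92 and 15.4 FPKM in Atf6-/- replicates 2 and 3. The summed lens markers reached 529 FPKM in Atf6+/+ OIR replicate 5 and 137 FPKM in replicate 2 while no Atf6-/- OIR library exceeded 10.7 FPKM, and they ranged from 8.28 to 8240 FPKM in the injection libraries. The labels do not say that the 5 libraries of a group came from separate animals, so p-values measure the spread between these libraries.

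Prph2 and Rom1, the rim tetraspanins, were by level the leading genes of the set. Prph2, also called peripherin-2, bends the disc edge, and Rom1 is its partner in mixed complexes. Prph2 (chr17:46910459-46924933, plus strand; gene positions are GENCODE on GRCm38) measured 1832, 1962, 1809, 2026 and 1909 FPKM in Atf6+/+ OIR and 2142, 2071, 1907, 2053 and 2032 FPKM in Atf6-/- OIR replicates 1 to 5. In the injection experiment it measured 2112, 2300, 2326, 1810 and 1730 FPKM with PBS and 2180, 2381, 2177, 2276 and 2152 FPKM with Ceapin-A7. At these levels 99.9% of the genes tested in the OIR libraries lay below it. The groups overlapped in both experiments, although 4 of 5 Atf6-/- libraries stood above every Atf6+/+ library. The log2 fold change was 0.12 (SE 0.07, adjusted p = 0.482, limma) for Atf6-/- and 0.13 (SE 0.11, adjusted p = 0.653) for Ceapin-A7, so neither passed the test. In whole retina, fewer cells of a type and less RNA per cell cannot be told apart.

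Rom1 (chr19:8927391-8929356, minus strand) measured 856, 877, 831, 832 and 910 FPKM in Atf6+/+ OIR and 926, 968, 878, 863 and 983 FPKM in Atf6-/- OIR. It measured 1765, 1931, 1929, 1437 and 1388 FPKM with PBS and 1883, 1953, 1865, 1785 and 1819 FPKM with Ceapin-A7. Genotype and drug groups overlapped, with log2 fold changes of 0.12 (95% interval -0.05 to 0.28, adjusted p = 0.475, limma) and 0.15 (-0.10 to 0.40, adjusted p = 0.622). The 10 P30 injection libraries, by contrast, all lay above the 10 P17 OIR libraries, 1388 to 1953 against 831 to 983 FPKM. The PBS mean was 1.96-fold the Atf6+/+ OIR mean, and 10.2% of all genes had a fold this large in either direction.

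**Figure D1:**
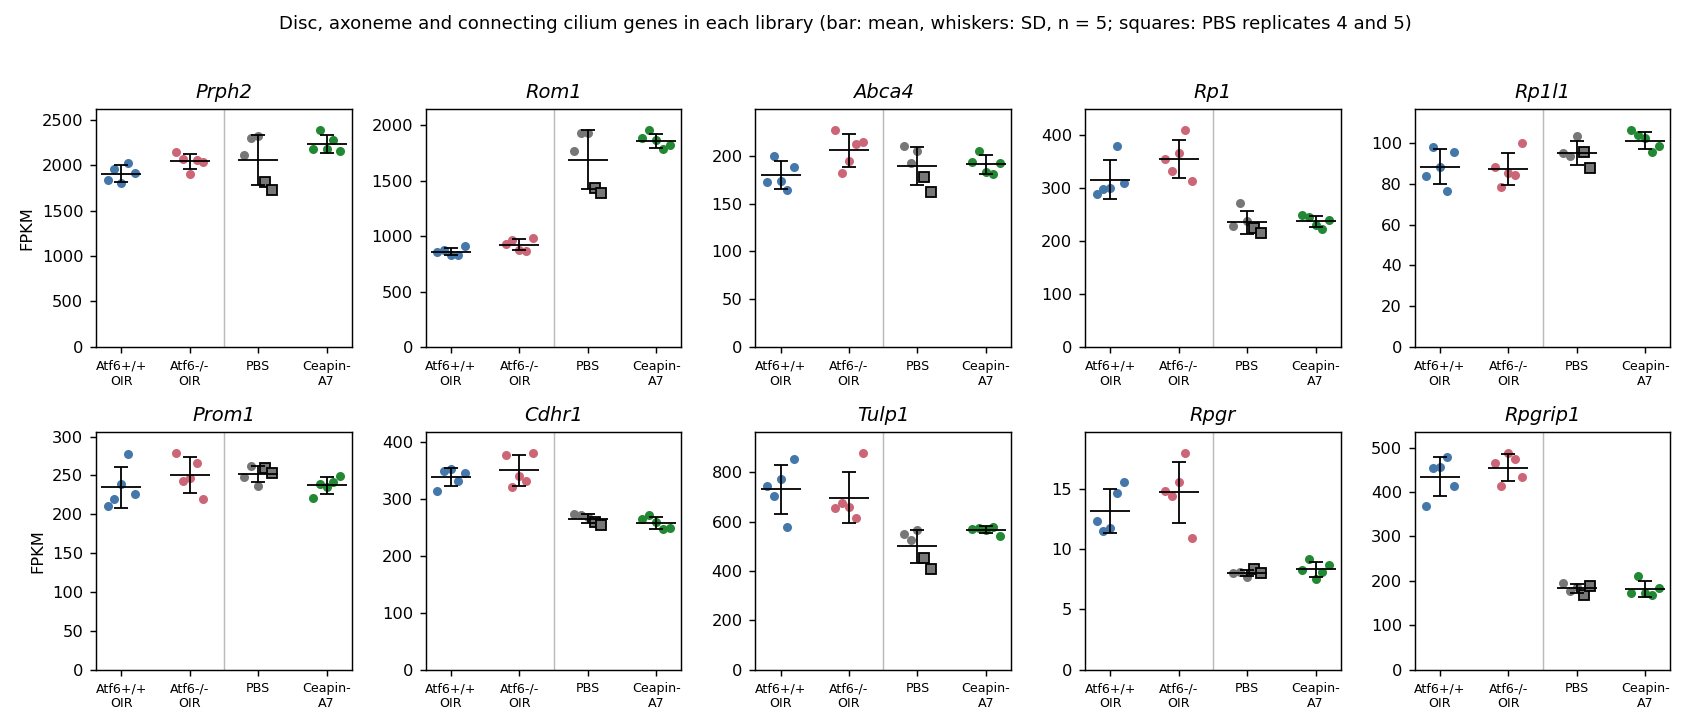
FPKM of each gene (y axes, from 0) in the 20 libraries of 4 groups (x axes), with points for libraries, bars for means and whiskers for SD (n = 5); squares are PBS replicates 4 and 5. Rom1 at P30 (1388 to 1953 FPKM) lies above P17 (831 to 983 FPKM), Rpgrip1 lies below, and the treated and control points of every gene overlap within each experiment.

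Abca4 encodes the flippase that clears retinal by-products from the disc rim and is the gene of Stargardt disease. Abca4 (chr3:122044443-122180123, plus strand) measured 173, 200.2, 174, 164 and 189 FPKM in Atf6+/+ OIR and 226, 182, 194, 212 and 214 FPKM in Atf6-/- OIR. Of the Atf6-/- libraries 3 were above every control and the others lay within the control range. The mean was 180 ± 14.4 FPKM against 206 ± 17.6 FPKM (SD, n = 5). On the log2 scale Abca4 was 0.21 higher in Atf6-/- OIR (SE 0.09, adjusted p = 0.371, limma). With PBS the values were 211, 193, 205, 177 and 162 FPKM and with Ceapin-A7 193, 205, 183, 181 and 193 FPKM, and no Ceapin-A7 library left the PBS range. That difference was 0.02 on the log2 scale (95% interval -0.16 to 0.19, adjusted p = 0.953).

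Rp1 and Rp1l1 encode related doublecortin proteins that bind the axoneme and align the discs along it. Rp1 (chr1:3999557-4409241, minus strand) measured 289, 298, 301, 380.1 and 310.1 FPKM in Atf6+/+ OIR and 354, 333, 366, 409 and 313 FPKM in Atf6-/- OIR. Atf6+/+ replicate 4 was higher than 4 of the Atf6-/- libraries, and the other controls lay below all of them. The log2 fold change was 0.19 (SE 0.08, adjusted p = 0.376, limma). A fit that gave each library its own weight put Rp1 at an adjusted p of 0.0299, in a setting that called 2772 of 15704 genes. Rp1 was 229, 271, 237, 224 and 215 FPKM with PBS and 249, 245, 230.1, 223 and 239 FPKM with Ceapin-A7, all below the P17 range. Rp1l1 (chr14:63992506-64035025, plus strand) was 88.5 ± 8.75 FPKM in Atf6+/+ OIR and 87.4 ± 7.87 FPKM in Atf6-/- OIR (log2 fold change 0.00, 95% interval -0.21 to 0.21), and it ranged from 87.84 to 103.67 FPKM with PBS and from 95.45 to 106.2 FPKM with Ceapin-A7. These ranges overlap, and the Ceapin-A7 difference was 0.09 on the log2 scale (adjusted p = 0.537, limma).

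Prom1 and Cdhr1 mark the newest membrane: prominin-1 sits in the growing disc evaginations at the base, and the cadherin Cdhr1 links those leading edges to the inner segment. Prom1 (chr5:43993620-44102032, minus strand) measured 211, 220.3, 239, 278 and 226 FPKM in Atf6+/+ OIR and 278, 243, 247, 266 and 219 FPKM in Atf6-/- OIR. It measured 249, 262, 236, 260 and 254 FPKM with PBS and 221, 238, 235, 241 and 249 FPKM with Ceapin-A7. Its mean was thus higher without Atf6 and lower with Ceapin-A7, each within overlapping ranges, with log2 fold changes of 0.11 (adjusted p = 0.492) and -0.09 (SE 0.04, adjusted p = 0.492, limma). Cdhr1 (chr14:37077857-37098347, minus strand) differed by 0.06 and -0.04 on the log2 scale (adjusted p = 0.69 and 0.779). Its 10 P17 libraries ranged from 313.76 to 380.83 FPKM and its 10 P30 libraries from 247.59 to 273.77 FPKM, without overlap.

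Tulp1 assists the delivery of membrane proteins to the cilium. Tulp1 (chr17:28351515-28365222, minus strand) measured 744, 704, 774, 579 and 853 FPKM in Atf6+/+ OIR and 657, 677, 657, 614 and 877 FPKM in Atf6-/- OIR. Replicate 5 of the Atf6-/- group was the highest of all 10 and the other 4 lay below all but one control, and the log2 fold change was -0.05, with a 95% interval of -0.34 to 0.24 (adjusted p = 0.862, limma), and 0.0582 after correction for GC content. With PBS it measured 551, 525, 565, 452 and 409 FPKM and with Ceapin-A7 570.1, 573, 567, 580.1 and 543 FPKM. Of the Ceapin-A7 libraries 4 lay above every PBS library, and the log2 fold change was 0.19 (SE 0.09, adjusted p = 0.491, limma). It was 0.113 without PBS replicate 5 and -0.019 under rod scaling.

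Rpgr and Rpgrip1 work at the connecting cilium, where Rpgrip1 anchors the X-linked GTPase regulator Rpgr. Rpgr (chrX:10073621-10216920, minus strand) had the lowest level of the set, 13.1 ± 1.83 FPKM in Atf6+/+ OIR, 14.7 ± 2.52 FPKM in Atf6-/- OIR, 8.02 ± 0.248 FPKM with PBS and 8.33 ± 0.628 FPKM with Ceapin-A7 (SD, n = 5). Its differences were 0.17 and 0.05 on the log2 scale (adjusted p = 0.5 and 0.755, limma), and it overlaps Srpx on the same strand, so reads could be divided between them. Rpgrip1 (chr14:52110704-52163546, plus strand) measured 368, 453, 457, 480.01 and 414 FPKM in Atf6+/+ OIR and 466, 414, 487, 473 and 433 FPKM in Atf6-/- OIR. It measured 196, 178, 185, 169 and 188 FPKM with PBS and 172, 212, 174, 168 and 185 FPKM with Ceapin-A7. The groups of each experiment overlapped (log2 fold changes 0.09 and -0.01), whereas the Atf6+/+ OIR mean was 2.37-fold the PBS mean, a fold reached by 6.09% of all genes in either direction. Rpgrip1 overlaps Supt16 on the other strand, and the strand setting of the counting is not given in the sources used here.

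Across the set, 0 of 10 genes passed an adjusted p of 0.05 in the OIR comparison, where 5 of 15704 genes did (0.0318%), and 2 of 10, Abca4 and Rp1, had an unadjusted p of 0.05 or less, as did 12.7% of all genes. Of the genes at that unadjusted level 54.3% were higher in Atf6-/- retinas, against 30.5% with FPKM as deposited, 31% after rescaling to equal sums and 2.63% after scaling to rod markers. The log2 fold change was above 0 for 9 of 10 genes (50.7% of all genes), a number that was 8 with FPKM as deposited, 10 with GC content corrected or without Atf6+/+ replicate 5, and 3 when each library was scaled to its rod markers, where 16.1% of all genes were above 0. Their median log2 fold change was 0.115 beside 0.003 over all genes, and -0.032 beside -0.143 under rod scaling. It was 0.072 with GC content corrected and 0.068 with quantile normalization, beside 0.001 and 0.019 over all genes. In 0 of 10 genes were the genotypes separate, beside 0.395% of all genes with every Atf6-/- library higher and 1.12% with every one lower. Neither Abca4 nor Rp1 kept an unadjusted p of 0.05 or less when Atf6+/+ replicate 1 or 3, or Atf6-/- replicate 1 or 4, was left out.

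In the injection comparison 0 of 10 genes passed an adjusted p of 0.05, where limma called 0 of 15408 genes (0%), and 0 of 10 had an unadjusted p of 0.05 or less, beside 1596 genes or 10.4%. The log2 fold change was above 0 for 7 of 10 genes (50.3% of all genes), and for 0 of 10 under rod scaling (8.46% of all genes). Their median was 0.033 beside 0.001 over all genes. Under rod scaling it was -0.176 beside -0.209. With Ddx3y as a covariate the median was 0.051 beside 0.002, and Tulp1 alone had an unadjusted p of 0.05 or less (limma). Tulp1, higher, also had it with FPKM as deposited, with the replicate block and without PBS replicate 1. Prom1, lower, had it with no filter, equal sums, GC content corrected and without Ceapin-A7 replicate 5. Prom1 and Cdhr1, both lower, had it under quantile normalization and rod scaling. Without PBS replicate 3, Rp1l1 and Tulp1 (higher) and Prom1 (lower) had it. The groups were separate for 0 of 10 genes, beside 0.876% of all genes with every Ceapin-A7 library higher and 0.461% with every one lower. The genotype difference minus the drug difference passed an adjusted p of 0.05 for 0 of 10 genes (0.032% of 15628) and had an unadjusted p of 0.05 or less for Prom1 alone, at 0.20 (95% interval 0.01 to 0.40, adjusted p = 0.522, limma), beside 9.2% of all genes. Age, oxygen exposure and injection differ between the experiments and cannot be told apart in it.

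**Figure D2:**
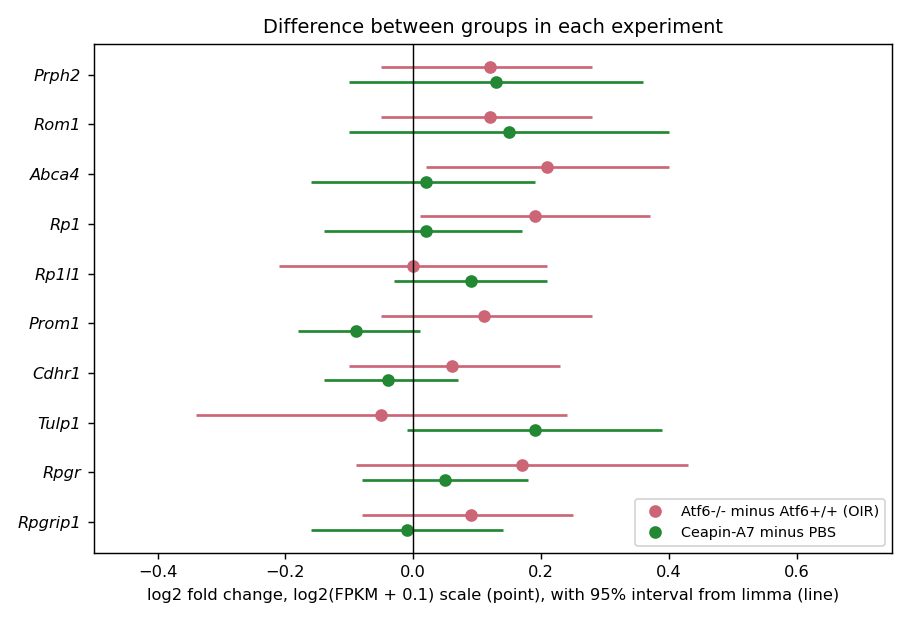
Log2 fold change of each gene (x axis, log2(FPKM + 0.1) scale) for Atf6-/- against Atf6+/+ OIR retinas and for Ceapin-A7 against PBS, points with 95% limma intervals as lines. In the OIR comparison the intervals of Abca4 (0.02 to 0.40) and Rp1 (0.01 to 0.37) lie above 0 before adjustment, and every other interval spans 0.

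Cell type markers were shifted between the groups of both experiments, although the summed rod markers overlapped in each. The OIR groups come first. The summed rod markers ranged from 20100 to 23300 FPKM in Atf6+/+ and from 22200 to 25500 FPKM in Atf6-/- OIR retinas, with 10 of 10 rod markers and 9 of 9 cone markers at a log2 fold change above 0 (medians 0.098 and 0.113). The summed pigment epithelium markers ranged from 25.8 to 125 FPKM and from 89.7 to 316 FPKM, with 10 of 11 above 0, and its defining marker Rpe65 was 1.47 ± 1.13 against 5.92 ± 4.33 FPKM. Of the lens markers 10 of 12 were below 0. Muller glia (6 of 8) and bipolar markers (7 of 8) were also mostly above 0, with medians of 0.158 and 0.094. Horizontal (3 of 4), ganglion (4 of 7) and amacrine markers (3 of 7) were above 0 in part. Below 0 were 6 of 7 endothelium, 5 of 6 microglia and 5 of 5 erythroid markers. The part of these shifts in the values of Abca4, Rp1 and the others was not tested. Leaving out Atf6+/+ replicates 2 and 5, the OIR libraries with most lens RNA, gave a median of 0.123 for the 10 genes and left Tulp1 at 0.0235. In the injection comparison 10 of 10 rod markers (median 0.193) and 9 of 9 cone markers (median 0.232) were above 0 with Ceapin-A7. So were 6 of 8 Muller glia markers (median 0.287), while 5 of 7 endothelium markers were below 0. These values include PBS replicates 4 and 5, and their part in the values of the 10 genes was not tested.

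Of the PBS libraries, replicates 4 and 5 stood apart. Prph2 was at 80.6% and 77.0% of the mean of PBS replicates 1 to 3, Rom1 at 76.6% and 74.0%, Abca4 at 87.5% and 79.7% and Tulp1 at 82.6% and 74.7%. For these 4 genes both libraries lay below all 8 other injection libraries. For the other genes this did not hold. Rp1 (91.1% and 87.3%), Rp1l1 (98.4% and 90.2%) and Cdhr1 (95.6% and 93.6%) were below the mean of PBS replicates 1 to 3 in both libraries. Rpgrip1 was at 90.8% and 101%, and Prom1 (104% and 102%) and Rpgr (105% and 101%) were above that mean in both. In the same libraries the summed rod markers were at 72.2% and 68.3%, the cone markers at 81.9% and 75.2% and the Muller glia markers at 64.9% and 75.4%. Without these libraries the median log2 fold change of the 10 genes for Ceapin-A7 was -0.041, and 3 of 10 were above 0 instead of 7. Prph2 was then at -0.025, Rom1 at -0.0275, Abca4 at -0.105 and Tulp1 at 0.034.

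**Figure D3:**
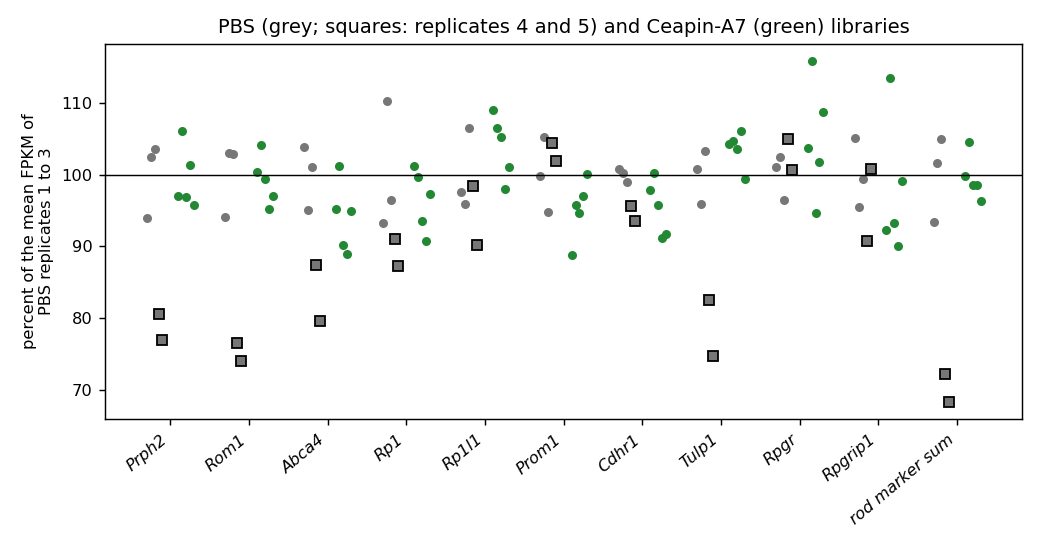
FPKM of each gene and the sum of 10 rod markers (x axis) in the injection libraries as a percent of the mean of PBS replicates 1 to 3 (y axis, not from 0); grey points are PBS, squares PBS replicates 4 and 5, green points Ceapin-A7. Prph2, Rom1, Abca4, Tulp1 and the rod sum are lowest in the squares (rod sum 72.2% and 68.3%), and Prom1 and Rpgr are not.

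The 4 ratios between partners within a library do not depend on scaling between libraries. A trend of a library with GC content is not removed by a ratio of genes that differ in it, such as Rp1l1 (52.6%) and Rp1 (44.0%). Ratios corrected for GC content were not tested. Rom1 to Prph2 was 0.452 ± 0.0257 in Atf6+/+ OIR, 0.453 ± 0.026 in Atf6-/- OIR, 0.82 ± 0.0209 with PBS and 0.834 ± 0.0324 with Ceapin-A7 (SD, n = 5). The groups of an experiment differed by less than the SD between libraries (exact permutation p = 0.952 and 0.46). In PBS replicates 4 and 5, where both genes were low, this ratio was 0.793 and 0.802. Those were the lowest of the PBS group, below the 0.836, 0.84 and 0.83 of replicates 1 to 3. The P17 ratios of 0.41 to 0.484 and the P30 ratios of 0.784 to 0.864 did not overlap. Rp1l1 to Rp1 was 0.285 ± 0.0491 and 0.249 ± 0.0422 in the OIR groups and 0.407 ± 0.0363 and 0.427 ± 0.0122 in the injection groups. Cdhr1 to Prom1 was 1.46 ± 0.153 and 1.41 ± 0.19, then 1.06 ± 0.0619 and 1.1 ± 0.0833. Rpgrip1 to Rpgr was 33.5 ± 5.64 and 31.6 ± 4.98, then 22.9 ± 1.74 and 21.9 ± 1.14. None of the 8 comparisons between the groups of an experiment passed the two-sided exact permutation test, with adjusted p of 0.736 to 0.952 over the 8 and a smallest possible p of 0.00794.

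**Figure D4:**
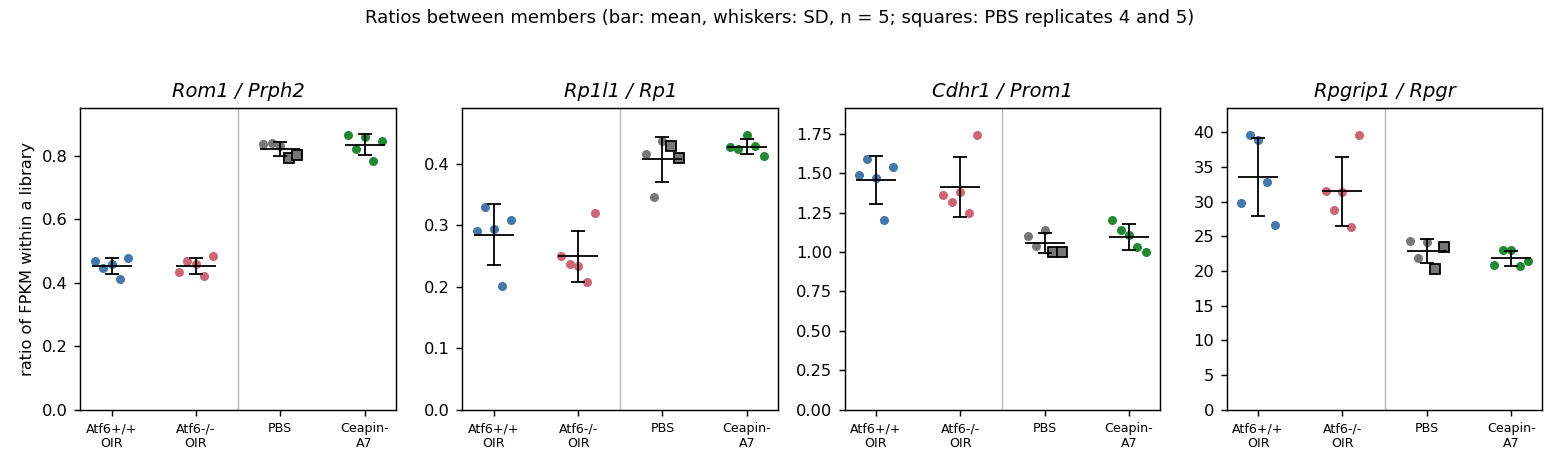
Ratio of FPKM of 2 genes within a library (y axes, from 0) for 4 pairs and 4 groups (x axes); points are libraries, bars means, whiskers SD (n = 5), squares PBS replicates 4 and 5. The Rom1 to Prph2 ratio lies between 0.41 and 0.484 in the P17 libraries and between 0.784 and 0.864 in the P30 libraries.

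Across the experiments, which also differ in oxygen, injection and table, the order of levels changed for part of the set. Of the 10 genes 1, Rom1, lay wholly higher at P30 (14.5% of all genes did) and 4, Rp1, Cdhr1, Rpgr and Rpgrip1, lay wholly lower (13.4%). Rpgr was 1.64-fold, Rp1 1.34-fold and Cdhr1 1.28-fold higher in Atf6+/+ OIR than with PBS. Tulp1 was 1.46-fold higher, with its lowest P17 library at 579.37 FPKM and its highest P30 library at 580.13 FPKM. Prph2, Abca4, Rp1l1 and Prom1 overlapped, at 1.05-fold to 1.08-fold higher with PBS. Age, oxygen, injection and table cannot be told apart here, and no test was made.

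Within groups and over all 20 libraries, the genes did not vary as one block. Values on the log2 scale were centred on their group means over the 20 libraries, which share scaling and library preparation. Over these libraries the Pearson correlation was 0.88 for Prph2 with Rom1 and 0.81 for Cdhr1 with Rp1l1. Ordered by transcript GC content, the 6 genes above 50% GC (Abca4, Cdhr1, Rp1l1, Prph2, Rom1 and Tulp1) had positive r in 15 of 15 pairs, with a median of 0.68, and the 4 genes under 50% (Rpgr, Rp1, Prom1 and Rpgrip1) in 6 of 6 pairs, with a median of 0.48. Between these sets 11 of 24 pairs were positive, with a median of -0.02 and a lowest value of -0.54 for Prom1 with Tulp1. After the trend of each library with GC content was removed, the medians were 0.61, 0.24 and 0.19 and 18 of 24 mixed pairs were positive. Without PBS replicates 4 and 5 the r of Prph2 with Rom1 was 0.60, below the 0.80 of Cdhr1 with Rp1l1, and in the OIR libraries alone it was 0.55 against 0.85. In the OIR comparison the log2 fold change of all genes was also lower at higher GC content (Spearman correlation -0.464 across genes, which are not independent replicates), against -0.098 in the injection comparison. With GC removed, Rp1 was at 0.101 (adjusted p = 0.552), Abca4 at 0.197 (adjusted p = 0.455) and Rom1 at 0.216 (adjusted p = 0.349, limma).

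**Figure D5:**
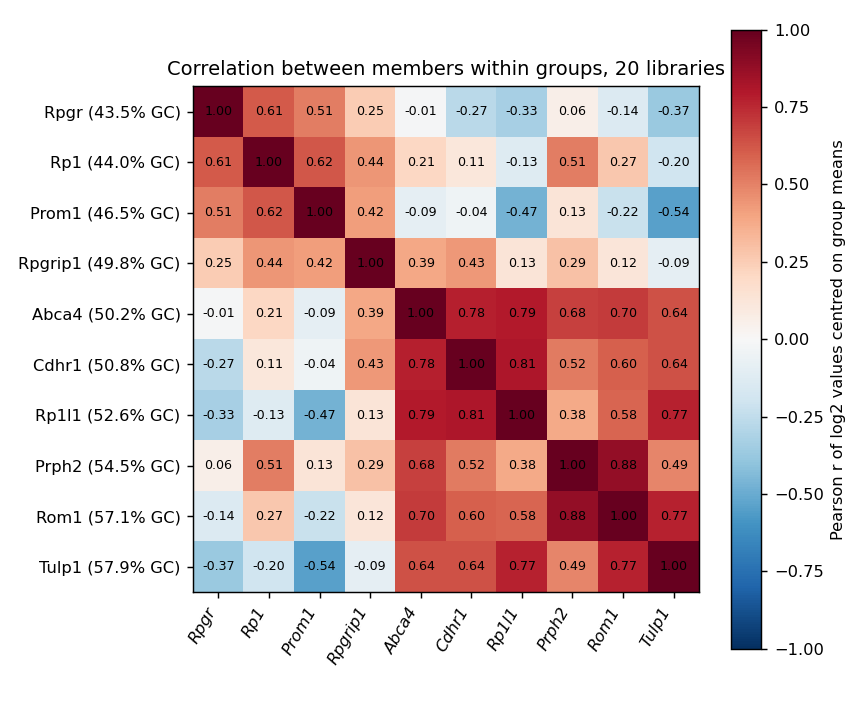
Pearson r between the 10 genes over 20 libraries (log2 values centred on group means), with genes ordered on both axes by transcript GC content; red is positive and blue negative. The 15 pairs above 50% GC are all positive, and Prom1 with Tulp1 is lowest at -0.54.

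Of 12987 other genes with a mean of at least 1 FPKM, those most like the median of the 10 within groups were Pde6a, the rod phosphodiesterase subunit (r = 0.95), then Tdrd7 (0.87), Syne3 (0.86) and Gnat1 (0.86). These r include PBS replicates 4 and 5, where the centred median of the 10 was lowest (-0.108 and -0.143). That of the rod markers was also lowest there (-0.316 and -0.312). Whether the likeness holds without these libraries was not tested. Of 45 further genes of the same structures that were found, out of 46 listed, 33 had a log2 fold change above 0 without Atf6 and 25 with Ceapin-A7 (medians 0.069 and 0.018), and 0 passed an adjusted p of 0.05. Among 12 disc and plasma membrane genes, 10 were above 0 in Atf6-/- OIR, with Cnga1, the rod channel subunit, at 0.21 (371 ± 41.5 against 325 ± 25.1 FPKM, adjusted p = 0.362) and Rdh12, a retinol dehydrogenase, at 0.20 (adjusted p = 0.362, limma). Pcare, which guides new disc formation, was at -0.20. Of 10 cargo delivery genes 8 were above 0, with Pde6d, the carrier of prenylated proteins, at 0.23 (111 ± 4.46 against 96.3 ± 8.53 FPKM, adjusted p = 0.357). Of 21 axoneme and connecting cilium genes 13 were above 0, with a median of 0.039, and the kinase gene Mak stood at -0.22 for Ceapin-A7 (73.1 ± 1.26 against 86.2 ± 13.2 FPKM, adjusted p = 0.472), or -0.14 without PBS replicate 4. Both interphotoreceptor matrix genes, Impg1 and Impg2, were at 0.08 and 0.10 without Atf6 and at -0.08 and -0.21 with Ceapin-A7, with no call. Impg2 was 117.79 FPKM in PBS replicate 4 and at most 76.31 FPKM in the other injection libraries, and its difference was -0.07 without that library. Without Atf6+/+ replicates 2 and 5 its OIR difference was -0.03. Of 13 photoreceptor transcription factors 12 were above 0 without Atf6, among them Crx at 0.19 (685 ± 22.5 against 609 ± 27.6 FPKM, adjusted p = 0.357), whose groups did not overlap, and 7 were above 0 with Ceapin-A7.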

How the data were processed

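Whole retinas were sequenced by the study as stranded mRNA libraries with paired 100-base reads. Per the labels and methods, the authors aligned reads to GRCm39 with HISAT2 2.0.4, quantified genes with RSEM 1.2.18 and used DESeq2 1.4.5; the deposited files hold FPKM, normalized by the authors for transcript length and library total, with no counts, so the depth of each library could not be read from them and no count model was run; the study's methods state 1 sequencing depth for all samples. Groups came from the labels (5 libraries each). Within each experiment the libraries were scaled by median-of-ratios factors, and limma 3.58.1 (R 4.3.3; empirical Bayes with trend) was fitted to log2(FPKM + 0.1) for genes with a mean FPKM above 0.1 (15704 in the OIR and 15408 in the injection tables). Fold changes on this scale understate changes of low genes. P-values were adjusted over all genes tested by Benjamini-Hochberg and called at 0.05. The same method was used for the difference of the 2 contrasts on all 20 libraries. Ratios were tested by exact two-sided permutation (scipy 1.17.1, Python 3.11.15). Transcript GC content and gene positions came from GENCODE on GRCm38 and promoters from RefSeq, since a GRCm39 genome was not used here. GC content was known for 97% of genes in the OIR tables. In tests on simulated data, 95% of 2-fold and 77% of 1.5-fold changes were called in the OIR design, and 93% and 85% in the injection design. Each simulation changed 100 genes 2-fold and 100 genes 1.5-fold, all with a mean FPKM above 1. The share called with fewer changed genes was not tested. The simulated noise was drawn separately for each gene, and no change smaller than 1.5-fold was simulated. The 10 genes differed by 0.941-fold to 1.16-fold, and the share of changes of that size that would be called was not tested. The genes and lists were chosen with earlier results of these data known. Named genes were the 10 members, up to 3 genes of each companion list with the smallest p, Gnat1, Crx, Nrl and Atf6, and the genes most like the members; 1 further gene of this rule is not reported here.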

Additional observations from a re-analysis of the deposited data

Results flagged for a closer look

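3 values lay farther from the rest of their group of 5 than Dixon's test allows. Rp1 in Atf6+/+ OIR replicate 4 was 380.13 FPKM, above the other 4 libraries of its group. Tulp1 in Atf6-/- OIR replicate 5 was 876.98 FPKM, above the other 4 of its group. The Cdhr1 to Prom1 ratio in Atf6-/- OIR replicate 5 was 1.74, also the highest of its group. Of 56 groups checked, chance flags about 1 in 20, or 2.8, so 3 is close to that number. No difference between the 2 contrasts passed the adjusted threshold for the 10 genes.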

How the results depend on the processing

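No alternative changed the count of 0 members called except library weights in the OIR comparison (1, Rp1; 2772 genes in all). Of the 250 OIR and 250 injection values of single members under alternatives, 229 and 222 kept their direction and side of the threshold. In the OIR comparison the count of genes called was 5, against 11 with rod scaling, 11 with all 20 libraries in 1 fit and 5 to 9 leaving out a replicate; in the injection comparison it was 0, against 1 with all 20 libraries in 1 fit. Rp1 with library weights was 0.254 (adjusted p = 0.0299, limma). The following log2 fold changes turned in sign, none of them called. In the OIR comparison these were, under rod scaling, Prph2 (-0.0317), Rom1 (-0.029), Rp1l1 (-0.147), Prom1 (-0.0323), Cdhr1 (-0.0822) and Rpgrip1 (-0.0591); Rp1l1 with mean FPKM above 1 (-0.00386), FPKM as deposited (-0.0173), equal sums (TPM, -0.0238), quantile normalization (-0.023), library weights (-0.0968) and Ddx3y as a covariate (-0.000352); and Tulp1 with GC removed (0.0582) and without Atf6+/+ replicates 2 and 5 (0.0235). In the injection comparison these were, under equal sums, Abca4 (-0.0226) and Rp1 (-0.0228); under quantile normalization, Prph2 (-0.133), Rom1 (-0.00398), Abca4 (-0.036) and Rp1 (-0.0385); under rod scaling, Prph2 (-0.0802), Rom1 (-0.0564), Abca4 (-0.193), Rp1 (-0.194), Rp1l1 (-0.119), Tulp1 (-0.019) and Rpgr (-0.159); with library weights, Abca4 (-0.0284); and without PBS replicates 4 and 5, chosen after seeing the data, Prph2 (-0.025), Rom1 (-0.0275), Abca4 (-0.105) and Rp1 (-0.0659). The cause was not tested. Leaving out 1 replicate gave Rp1l1 -0.0684 to 0.0463 and Tulp1 -0.157 to 0.0141 in the OIR comparison, and Abca4 -0.0467 to 0.0586, Rp1 -0.023 to 0.0753 and Rpgrip1 -0.0709 to 0.0187 in the injection comparison. The log2 difference of the Rom1 to Prph2 ratio was -0.0317 to 0.0289 leaving out 1 OIR replicate and -0.00247 without PBS replicates 4 and 5; that of Cdhr1 to Prom1 was 0.0222 without Atf6+/+ replicates 2 and 5 and -0.000124 without PBS replicates 4 and 5. No pairing of the libraries by replicate number was seen, as same-numbered libraries correlated at -0.26 to 0.31 and 2 of 10 matched their own number best. With 5 libraries per group this cannot exclude a pairing. With the replicate block 5 OIR and 0 injection genes were called, and Abca4 was at 0.211, Rp1 at 0.189 and Tulp1 under Ceapin-A7 at 0.19. Without counts, no value here has a counting error.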
